A study of Mus musculus with 15 samples.

Results

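The genes described here encode 8 enzymes that write or erase methyl groups on lysine 36 of histone H3 (H3K36). They were chosen by name: Setd2, Nsd1 and Ash1l as methyltransferases, and Kdm2a, Kdm2b, Kdm4a, Kdm4b and Kdm4c as demethylases. All 8 were found among the 31829 gene names on the array, and all 8 were among the 25139 genes whose signal passed the filter on dim probes. They were covered by 12 probes, each well above background on all 15 arrays, and each gene is described by its brightest probe unless another is named.

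The study, titled for a link of the Polycomb-like protein Phf19 to methylated H3K36, profiled total RNA of mouse embryonic stem (ES) cells on 1-colour Agilent arrays. Cells carried the hairpin shCTR, taken here as the control, or the hairpin sh4, whose target the labels do not give. The groups were shCTR untreated (n = 4), sh4 untreated (n = 4), shCTR after 72 hours in 1 µM retinoic acid (n = 4) and sh4 after the same treatment (n = 3), written below as shCTR, sh4, shCTR 72 RA and sh4 72 RA. Retinoic acid makes ES cells leave the pluripotent state. The untreated samples carry no time of culture in their labels, so the effect of retinoic acid and that of 72 hours in culture cannot be told apart. The ES cell line, the number of clones behind each hairpin and the delivery of the hairpins are not stated in the labels. The replicates are called biological, but nothing says that they were separate cultures, so the p-values measure the spread between these samples, which may be technical.

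H3K36 is methylated in steps. Nsd1 and its relatives and Ash1l add the first methyl groups, in broad domains and at active developmental genes, whereas Setd2 travels with elongating RNA polymerase II and makes the trimethylated form over gene bodies. Kdm2a and Kdm2b remove the lower methylation states and are drawn to unmethylated CpG islands by a CXXC zinc finger, and the Kdm4 enzymes remove tri- and dimethylation from H3K36 and also from H3K9. The Tudor domain of Phf19 binds methylated H3K36, and Phf19 is an accessory subunit of Polycomb repressive complex 2, the writer of H3K27 methylation.

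Levels are given as log2 of the processed spot signal minus the 75th percentile of the same array, so a level of 0 is the signal of the probe at that percentile. Differences are log2 differences between group means with their standard error (SE) from 1 limma model of the 4 groups over all 15 arrays. A gene is said to have risen or fallen where its Benjamini-Hochberg adjusted p over all 25139 genes was under 0.05. Levels of different probes are not comparable with each other, and each gene is compared only with itself across groups. How many of all genes showed no overlap between groups was not counted, so a lack of overlap only describes the arrays.

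No spot was saturated, 73.8% to 79.4% of probes were well above background on each array, and the 75th percentile lay at an intensity of 1529 to 1938. For 3 arrays, sh4 72 RA replicate 1, sh4 replicate 3 and shCTR replicate 2, the scanner's quality report asked for evaluation. For Phf19 itself the sh4 arrays did not overlap with the shCTR arrays in either treatment, and its mean in sh4 was 30.2% of the shCTR level untreated (95% confidence interval 26.5% to 34.4%) and 54.4% after retinoic acid (47.3% to 62.6%). As log2 differences these were -1.73 (interval -1.92 to -1.54) and -0.88 (-1.08 to -0.68). Over the 13 other settings they were -1.79 to -1.46 and -0.9 to -0.55, called each time. The smallest came with the authors' deposited log2 values and lay outside both intervals, as did those of another background correction. Their size thus depends on the processing. The Phf19 probe was dim in sh4 72 RA, at an intensity of 99.3 to 142. All 8 ES cell markers examined were detected on every array. Their summed signal, in units of the array's 75th percentile, was 244 to 270 in shCTR, 182 to 191 in sh4, 34.4 to 37 in shCTR 72 RA and 23.2 to 28.8 in sh4 72 RA. Sums of 10 endoderm genes were 1.25 to 1.42 in shCTR, 0.413 to 0.44 in sh4, 49.8 to 58.5 in shCTR 72 RA and 12.5 to 12.9 in sh4 72 RA. Among them Ttr was not above background in shCTR, nor Afp and Ttr in sh4, and Elf5 of the trophectoderm genes was not above it in shCTR. Sums of 7 trophectoderm genes were 4.13 to 5.74 in shCTR, 47.8 to 58.5 in sh4, 173 to 202 in shCTR 72 RA and 169 to 193 in sh4 72 RA. Sums of 9 fibroblast genes, listed as markers of feeder cells, were 2.33 to 2.63, 1.22 to 1.31, 16.4 to 22.7 and 24.3 to 25.8 in the same order. Of these genes Postn was not above background in either untreated group, and Col3a1, Dcn and Lum were also not above it in shCTR. Whether feeder cells or the ES cells themselves gave this signal was not tested. A sum follows its brightest probes. Of the 10 endoderm genes all 10 were called higher with retinoic acid in shCTR cells. In sh4 cells 9 were called higher and 1, Hnf4a, lower (-0.83). Between hairpins 8 of the 10 were called lower in sh4 untreated and 10 after retinoic acid. Their interactions were called positive for 3 and negative for 6. Of the 9 fibroblast genes 4 were called higher in sh4 than in shCTR untreated and 3 lower. With retinoic acid 8 were called higher and 1 lower in each line. Of the 7 trophectoderm genes 6 were called higher and 1 lower with retinoic acid in shCTR cells, and 4 higher and 3 lower in sh4 cells. Between hairpins all 7 were called higher in sh4 untreated, and after retinoic acid 2 were called higher and 3 lower. Of the 8 ES cell markers 7 were called lower and 1 higher with retinoic acid in each line. Between hairpins untreated 3 of those 8 were called lower and 1 higher in sh4. After retinoic acid 5 of the 8 were called lower and 1 higher in sh4. Sums of 6 neural genes were 2.95 to 6.31 over all arrays, with members called in both directions: with retinoic acid Nes rose by 2.67 in shCTR and 2.64 in sh4 cells, Sox1 differed by -2.52 and -2.16 and Tubb3 by -2.03 and -1.79, each called by limma. The part of these cell type markers in the results below was not tested. The samples are bulk RNA, so fewer cells of a type and less RNA per cell cannot be told apart.

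The largest difference among the 8 genes was in the demethylase Kdm4c, which fell to 23.5% of its untreated level with retinoic acid in shCTR cells and to 24.9% in sh4 cells. Nsd1 fell as well in both hairpin lines. Kdm4a, Kdm4b and Kdm2a fell in shCTR cells, though a second, very dim Kdm4a probe rose and the Kdm2a call was lost in the deposited values. Kdm2b fell in sh4 cells with the scaling used here, though not under quantile normalisation or in the deposited values. Ash1l, measured by a very dim probe, rose in all 4 comparisons of 2 groups, 3 of which did not pass under another background correction. Between hairpins the largest difference that passed on a chosen probe was 0.44 log2.

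With retinoic acid in shCTR cells 6 of the 8 genes passed the test, 1 higher and 5 lower, where 62.5% of all genes tested passed, 28.9% higher and 33.5% lower. In sh4 cells 4 of 8 passed, 1 higher and 3 lower, against 58.6% of all genes, 27.1% higher and 31.6% lower. Between sh4 and shCTR in untreated cells 3 of 8 passed, 2 higher and 1 lower, against 28.4% of all genes, 14.3% higher and 14.2% lower. After retinoic acid 3 of 8 passed, all higher, against 21.1% of all genes, 10.8% higher and 10.3% lower. The test of the interaction, which asks whether the retinoic acid difference in sh4 cells departs from that in shCTR cells, called 1 of 8, with a positive sign, against 20.4% of all genes, 10.3% positive and 10.1% negative. Some of these shares depart from the background, but they rest on 8 genes and are not read as a result about them. The median difference of the 8 was -0.40 with retinoic acid in shCTR cells and -0.17 in sh4 cells, beside -0.12 over all genes in both. It was 0.06 between hairpins untreated and 0.15 after retinoic acid, beside 0.02 and 0.04 over all genes.

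**Figure D1:**
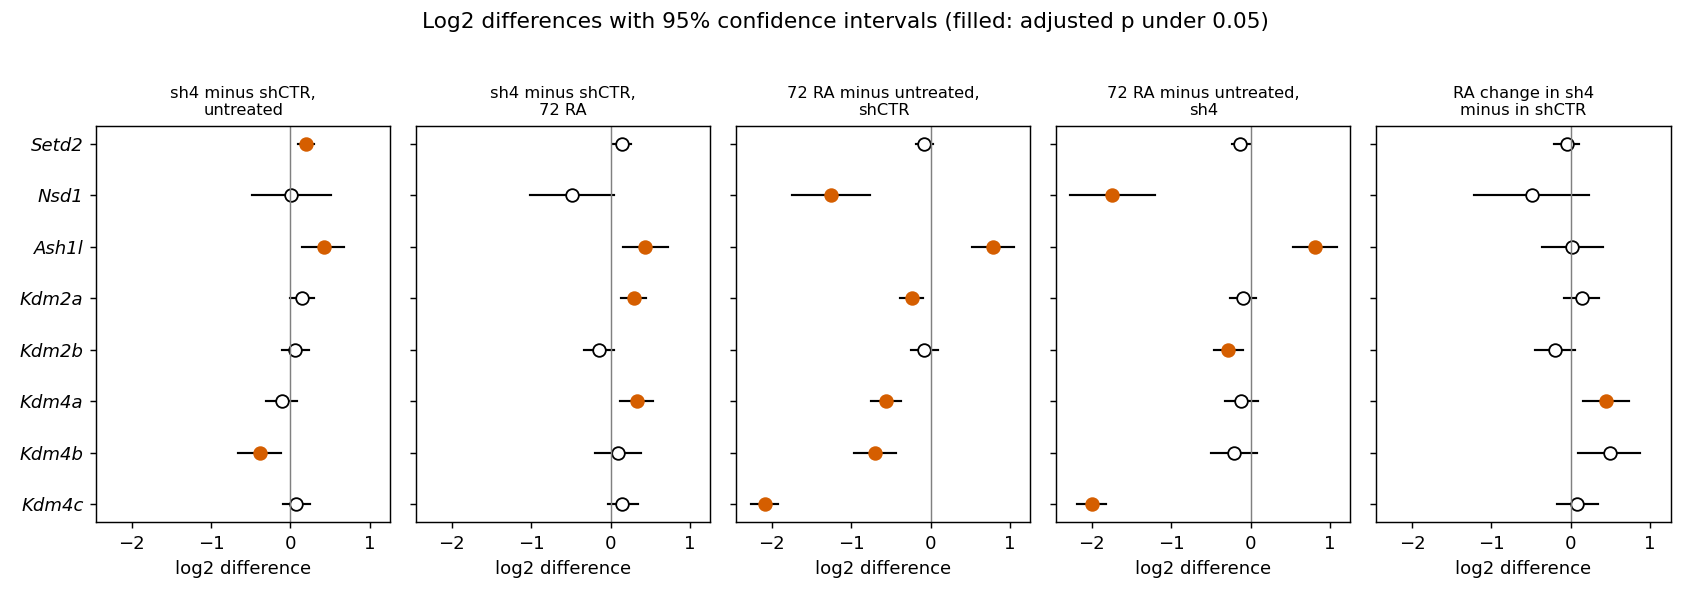
Log2 differences of the 8 genes in the 5 comparisons, 1 panel per comparison, as points with 95% confidence intervals from the limma model. Filled points have an adjusted p under 0.05, and the points farthest from 0 are those of Kdm4c in the panels of retinoic acid against untreated, at -2.09 in shCTR cells.

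Setd2 is the enzyme that makes H3K36 trimethylation during transcription. Its probe was printed at 10 places on each array, and the standard deviation (SD) between those copies had a median of 0.05 log2, so it is the most closely measured of the 8 genes. Its levels were 2.56, 2.53, 2.46 and 2.50 in shCTR and 2.74, 2.66, 2.75 and 2.68 in sh4. Every sh4 array lay above every shCTR array. After retinoic acid the levels were 2.47, 2.47, 2.42 and 2.39 in shCTR 72 RA and 2.62, 2.60 and 2.52 in sh4 72 RA, again with no overlap between hairpins.

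Setd2 was 0.19 ± 0.05 (SE) higher in sh4 than in shCTR untreated, 114% of the shCTR level, with an adjusted p of 9.4e-03. The difference within each of the 4 slides was 0.13 to 0.28. After retinoic acid it was 0.14 ± 0.05, which did not pass (adjusted p = 0.082), and 0.10 to 0.15 within the slides that held both groups. It passed with the deposited log2 values (0.18, adjusted p = 0.021), the slide as a random block (0.14, 0.035) and a trended, robust fit (0.14, 0.041). The call untreated was lost with scaling to the array median (0.16, adjusted p = 0.34), with only the 2 untreated groups in the model (0.19, 0.056) and without the 3 arrays rated for evaluation (0.19, 0.050).

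With retinoic acid Setd2 differed by -0.08 ± 0.05 in shCTR cells (adjusted p = 0.21) and by -0.13 ± 0.05 in sh4 cells (adjusted p = 0.057). The latter passed with the slide as a block (-0.14, adjusted p = 0.025), with scaling to the array median (-0.27, 0.042) and in 3 other settings. The sign turned with the scaling in both lines. In shCTR cells quantile normalisation gave 0.13 (adjusted p = 0.049) and the deposited log2 values 0.12 (0.046), both called as higher. Scaling to the array median gave -0.28 there (0.022), called as lower. In sh4 cells quantile normalisation gave 0.09 and the deposited log2 values 0.12, neither of which passed. No direction of Setd2 with retinoic acid is therefore given.

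Nsd1 is a broad H3K36 mono- and dimethyltransferase that is essential in early development. Its 2 probes lie at opposite ends of the transcript, and they are printed because their readings differ between hairpins. The brighter one starts at base 12691 of the transcript, in the last part of the messenger RNA, at chr13:55419594-55419653 on the forward strand of mm9, and its first 30 of 60 bases are given. The other starts at base 1162, spans 4719 genomic bases at chr13:55335377-55340095 and so crosses an exon junction, and is given whole. No letter of either is singled out by capitals.
Nsd1, probe near the 3′ end: ggagccctgtgctaggagtccccataaaca
Nsd1, probe across an exon junction: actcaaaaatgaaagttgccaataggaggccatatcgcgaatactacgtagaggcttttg

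On the 3′ probe the Nsd1 levels were 4.34, 3.92, 3.87 and 4.11 in shCTR and 3.98, 4.28, 3.95 and 4.08 in sh4. They were 2.70, 2.69, 2.88 and 2.95 in shCTR 72 RA and 1.56, 2.98 and 2.44 in sh4 72 RA. Every treated array was below every untreated one, and sh4 72 RA replicate 1 was far below its fellows, which gave that group an SD of 0.71 against 0.13 to 0.22 in the others. Nsd1 fell by 1.25 ± 0.23 with retinoic acid in shCTR cells (adjusted p = 2.7e-04), to 42% of the untreated level. In sh4 cells it fell by 1.75 ± 0.25 (adjusted p = 3.1e-05), to 29.8%, and leaving out each of the 15 arrays in turn moved this between -2.07 and -1.36, called each time. The value nearest to 0, -1.36 with an adjusted p of 1.8e-05, was the fit without sh4 72 RA replicate 1, an array that the scanner software had rated for evaluation.

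On the junction probe Nsd1 lay at 0.05, 0.07, -0.01 and 0.01 in shCTR, 0.28, 0.13, 0.30 and 0.15 in sh4, -0.96, -0.92, -0.80 and -0.78 in shCTR 72 RA and -0.64, -0.62 and -0.60 in sh4 72 RA. Here the 4 groups did not overlap. Retinoic acid gave -0.89 ± 0.06 in shCTR cells (adjusted p = 1.5e-08) and -0.83 ± 0.07 in sh4 cells (adjusted p = 8.8e-08), so the fall was read by both probes.

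The hairpin difference of Nsd1 depended on the probe. On the junction probe sh4 was higher than shCTR by 0.19 ± 0.06 untreated (adjusted p = 0.032) and by 0.25 ± 0.07 after retinoic acid (adjusted p = 0.016). On the 3′ probe the differences were 0.01 ± 0.23 (adjusted p = 0.98) and -0.48 ± 0.25 (adjusted p = 0.22), and the second was -0.10 (adjusted p = 0.85) without sh4 72 RA replicate 1 and passed, at -0.81 (adjusted p = 0.018), without sh4 72 RA replicate 3. Neither probe gave an interaction, at -0.49 ± 0.34 and 0.06 ± 0.09.

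Ash1l, a Trithorax-group protein that dimethylates H3K36 and opposes Polycomb repression, had the dimmest chosen probe, with an intensity of 41.3 to 141 against a 75th percentile of at least 1529. Its levels were -4.85, -5.35, -5.14 and -5.22 in shCTR and -4.73, -4.80, -4.80 and -4.56 in sh4. After retinoic acid they were -4.55, -4.27, -4.16 and -4.42 in shCTR 72 RA and -4.11, -3.88 and -3.75 in sh4 72 RA. The 4 groups stepped upward in that order with no overlap.

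Ash1l rose with retinoic acid by 0.79 ± 0.12 in shCTR cells (adjusted p = 6.0e-05) and by 0.81 ± 0.13 in sh4 cells (adjusted p = 1.1e-04). It was higher in sh4 by 0.42 ± 0.12 untreated (adjusted p = 0.019) and by 0.44 ± 0.13 after retinoic acid (adjusted p = 0.029). At this brightness the background correction mattered: with normexp correction of the mean signal these 4 differences were 0.18, 0.45, 0.05 and 0.32, and of them the second passed, with an adjusted p of 6.6e-03. The 3011 genes of mean intensity 40 to 100 had a median difference of -0.05, -0.07, 0.04 and 0.02 in the same order, and with normexp -0.21, -0.08, -0.10 and 0.03. Of these dim genes 29.1% were called higher and 20.6% lower with retinoic acid in shCTR cells and 26.4% and 20.2% in sh4 cells, beside 28.9% and 33.5% and 27.1% and 31.6% of all genes tested, so among dim genes calls leaned towards rises. The untreated hairpin call was also lost with quantile normalisation (0.37, adjusted p = 0.12), scaling to the array median (0.38, 0.12), the deposited values (0.16, 0.29) and without the 3 arrays rated for evaluation (0.37, 0.064). After retinoic acid it was lost with quantile normalisation (0.45, adjusted p = 0.096), scaling to the array median (0.47, 0.097), the deposited values (0.30, 0.063) and only the 2 groups in the model (0.44, 0.056). Of single arrays, the untreated hairpin call was lost without sh4 replicate 4 (0.36, adjusted p = 0.062), shCTR replicate 2 (0.35, 0.062) or shCTR replicate 4 (0.39, 0.053). The call after retinoic acid was lost without sh4 72 RA replicate 3 (0.42, adjusted p = 0.083) or 4 (0.36, 0.12) and without shCTR 72 RA replicate 1 (0.37, 0.083) or 4 (0.42, 0.070).

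**Figure D2:**
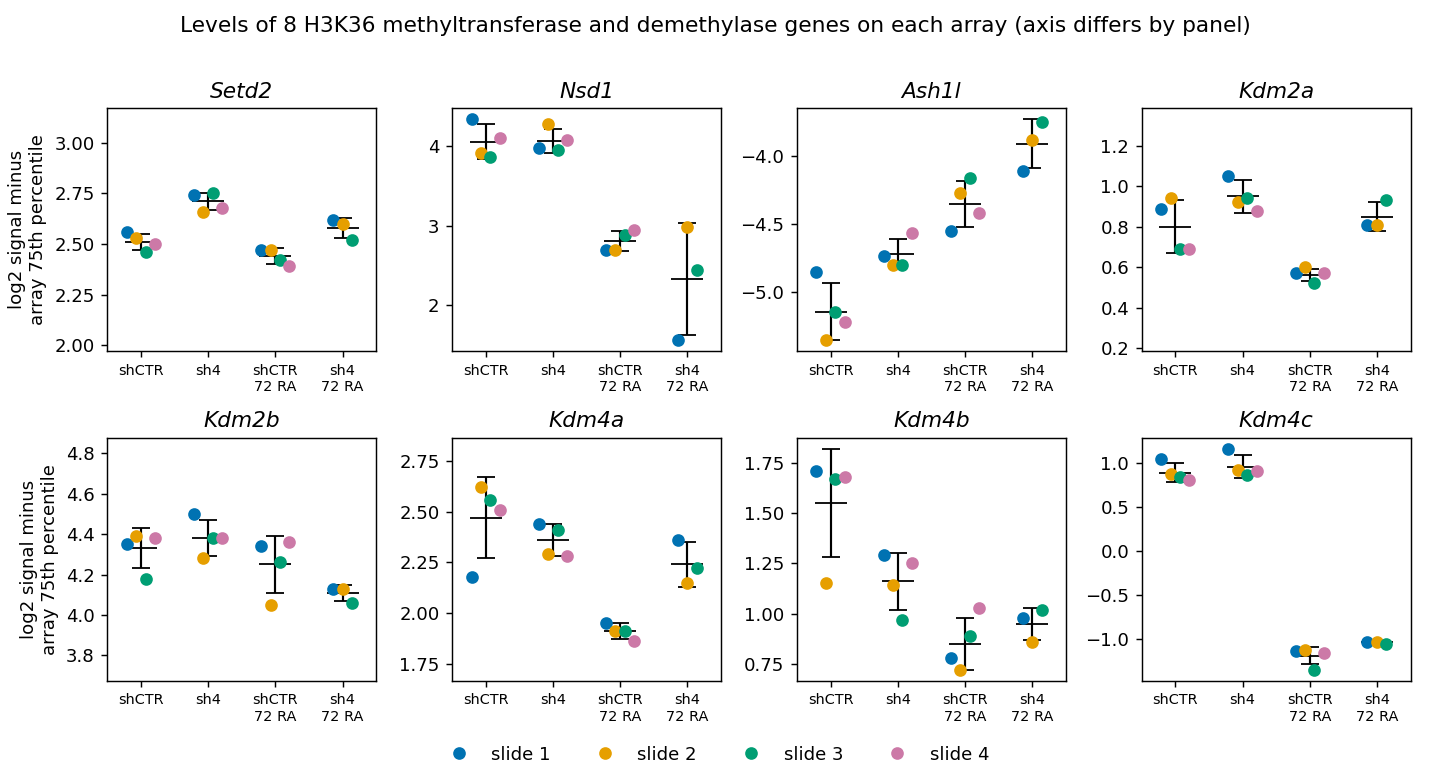
Level of each of the 8 genes on each of the 15 arrays, in log2 signal minus the array's 75th percentile, 1 panel per gene with its own axis. Points are arrays coloured by slide and bars are the group mean ± SD. Kdm4c falls from between 0.81 and 1.16 to between -1.35 and -1.03 with retinoic acid, and sh4 72 RA replicate 1 stands low for Nsd1 at 1.56.

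Kdm2a, a demethylase of H3K36 mono- and dimethylation that sits at CpG islands, changed little. Its levels were 0.89, 0.94, 0.69 and 0.69 in shCTR, 1.05, 0.92, 0.94 and 0.88 in sh4, 0.57, 0.60, 0.52 and 0.57 in shCTR 72 RA and 0.81, 0.81 and 0.93 in sh4 72 RA. The shCTR 72 RA arrays were below all others. Kdm2a fell with retinoic acid by 0.24 ± 0.07 in shCTR cells (adjusted p = 8.6e-03), to 84.8% of the untreated level. With the deposited log2 values the difference was -0.13 (adjusted p = 0.14). In sh4 cells it was -0.09 ± 0.08 (adjusted p = 0.31).

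After retinoic acid Kdm2a was 0.29 ± 0.08 higher in sh4 than in shCTR (adjusted p = 0.014), and 0.21 to 0.41 higher within the 3 slides that held both groups. The call was lost with normexp (0.27, adjusted p = 0.056), scaling to the array median (0.31, 0.082) and the mean of its probes (0.23, 0.069), and without sh4 72 RA replicate 4 (0.25, 0.067). Untreated it was 0.15 ± 0.07 (adjusted p = 0.15). The interaction was 0.14 ± 0.10 (adjusted p = 0.43), so a difference of Kdm2a between the lines in their response was not shown. A second, dimmer Kdm2a probe gave -0.22 ± 0.12 for retinoic acid in shCTR cells and 0.17 ± 0.13 for the hairpins after retinoic acid, neither of which passed.

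Kdm2b, the relative of Kdm2a that brings a variant of Polycomb repressive complex 1 to CpG islands, was read by 2 probes of the same annotated transcript that did not give the same hairpin difference. The dimmer one starts at base 4073 of the transcript, at chr5:123321714-123321773 on the reverse strand of mm9. Both are near the 3′ end, which forms of Kdm2b with and without the demethylase domain can share, so neither tells those forms apart. The first 30 bases of the dimmer 60-base probe are given because it is the one that gave the interaction.
Kdm2b, dimmer probe: tgtccaatttgggcaagtggaagagaaact

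The brighter Kdm2b probe had levels of 4.35, 4.39, 4.18 and 4.38 in shCTR, 4.50, 4.28, 4.38 and 4.38 in sh4, 4.34, 4.05, 4.26 and 4.36 in shCTR 72 RA and 4.13, 4.13 and 4.06 in sh4 72 RA. The sh4 72 RA arrays were below both untreated groups and overlapped with the lowest shCTR 72 RA array. Kdm2b fell by 0.28 ± 0.08 with retinoic acid in sh4 cells (adjusted p = 0.012), a direction that was not kept with quantile normalisation (0.01) or the deposited log2 values (0.04). With normexp it was -0.24, which did not pass (adjusted p = 0.052). In shCTR cells the difference was -0.08 ± 0.08 (adjusted p = 0.44), and with the deposited values 0.20 (adjusted p = 0.041).

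The dimmer Kdm2b probe had levels of -1.36, -1.33, -1.28 and -1.13 in shCTR, -1.28, -1.15, -0.99 and -0.92 in sh4, -1.17, -1.27, -0.89 and -0.86 in shCTR 72 RA and -1.51, -1.51 and -1.46 in sh4 72 RA. The sh4 72 RA arrays were lowest of all. On it sh4 was 0.44 ± 0.11 lower than shCTR after retinoic acid (adjusted p = 0.013), the change with retinoic acid in sh4 cells was -0.41 ± 0.11 (adjusted p = 6.8e-03) and in shCTR cells 0.23 ± 0.10 (adjusted p = 0.076). The interaction on this probe was -0.63 ± 0.15 (adjusted p = 0.010), whereas on the brighter probe it was -0.20 ± 0.12 (adjusted p = 0.28). With the mean of both probes it was -0.42 (adjusted p = 0.018).

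Kdm4a, a demethylase of trimethylated H3K9 and H3K36, was the gene of the 8 called in the interaction. Its levels were 2.18, 2.62, 2.56 and 2.51 in shCTR, 2.44, 2.29, 2.41 and 2.28 in sh4, 1.95, 1.91, 1.91 and 1.86 in shCTR 72 RA and 2.36, 2.15 and 2.22 in sh4 72 RA. The shCTR 72 RA arrays were below all others, while sh4 72 RA overlapped with both untreated groups. Kdm4a fell with retinoic acid by 0.56 ± 0.09 in shCTR cells (adjusted p = 8.3e-05), to 67.8% of the untreated level, and differed by -0.12 ± 0.10 in sh4 cells (adjusted p = 0.34).

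Between hairpins Kdm4a was 0.33 ± 0.10 higher in sh4 after retinoic acid (adjusted p = 0.026) and differed by -0.11 ± 0.09 untreated (adjusted p = 0.44). The interaction was 0.45 ± 0.13 (adjusted p = 0.029, 95% confidence interval 0.16 to 0.73), and 0.15, 0.56 and 0.46 within slides 1, 2 and 3, which held all 4 groups. With the slide as a block it was 0.44 (adjusted p = 0.046). The direction held with each array left out, at 0.39 to 0.54, but the interaction call was lost in 8 of the 15 fits. These were without sh4 72 RA replicate 1 (0.39, adjusted p = 0.085) or 4 (0.46, 0.052), shCTR 72 RA replicate 4 (0.43, 0.056), sh4 replicate 2 (0.42, 0.056) or 4 (0.42, 0.058) and shCTR replicate 2 (0.39, 0.056), 3 (0.42, 0.060) or 4 (0.43, 0.054). The hairpin call after retinoic acid was lost without sh4 72 RA replicate 1 (0.28, adjusted p = 0.12) or 4 (0.34, 0.059) and without shCTR 72 RA replicate 3 (0.33, 0.052) or 4 (0.32, 0.063), and also with scaling to the array median (0.36, 0.14), the mean of its probes (0.28, 0.063) and without the 3 arrays rated for evaluation (0.28, 0.12). The untreated hairpin difference was called, at -0.21 (adjusted p = 0.037), without shCTR replicate 1, whose level of 2.18 was the lowest of its group.

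Kdm4a also had a second probe, annotated to its transcript variant 2. The brighter probe is annotated to variant 1, at chr4:117809639-117809698 on the reverse strand of mm9, and the other lies at chr4:117814727-117814786, so they need not read the same messenger RNA. The first 30 bases of each are given because their changes had opposite signs.
Kdm4a, probe of variant 1: cttcataccttgctctgtatacaggagtca
Kdm4a, probe of variant 2: ccctgcagtccactgaaatatgcttatatc

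The variant 2 probe was as dim as that of Ash1l, with an intensity of 31.3 to 76.4. It lay at -5.62 to -5.35 in shCTR, -5.58 to -5.22 in sh4, -5.10 to -4.59 in shCTR 72 RA and -4.78 to -4.41 in sh4 72 RA, so every treated array was above every untreated one. It gave 0.71 ± 0.13 with retinoic acid in shCTR cells (adjusted p = 2.3e-04) and 0.80 ± 0.14 in sh4 cells (adjusted p = 1.9e-04). With normexp correction these were 0.12 ± 0.13 (adjusted p = 0.43) and 0.28 ± 0.14 (adjusted p = 0.11), neither of which passed. The brighter probe gave -0.52 ± 0.08 in shCTR cells with the same correction, and an interaction of 0.45 ± 0.12 (adjusted p = 0.025). With the mean of both probes the Kdm4a interaction was 0.27 (adjusted p = 0.21), with scaling to the array median 0.51 (0.13) and without the 3 arrays rated for evaluation 0.35 (0.15), none of which passed.

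The genes whose levels followed those of Kdm4a most closely over the 15 arrays were Mcat, a mitochondrial acyl carrier protein transacylase, Zbtb25, a zinc finger gene, and Pycrl, a proline synthesis enzyme. The likeness is the root mean square difference of levels centred per gene, which was 0.08, 0.09 and 0.09 log2 for the 3 among 21457 genes, against a root mean square of 0.24 for Kdm4a itself. Their interactions were 0.50, 0.34 and 0.30, beside 0.45 for Kdm4a. Since they were ranked on the same arrays, this is a description.

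**Figure D3:**
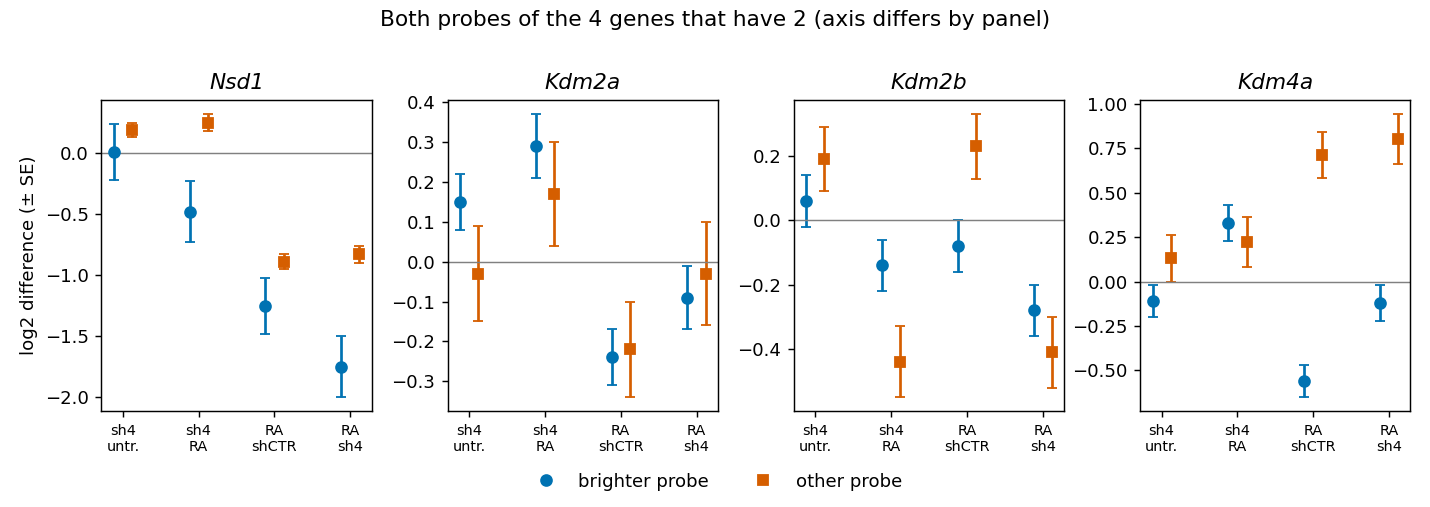
Log2 differences ± SE on both probes of the 4 genes that had 2, 1 panel per gene with its own axis, for sh4 minus shCTR untreated and in retinoic acid and for retinoic acid minus untreated in shCTR and sh4 cells. The Nsd1 probes both lie below 0 for retinoic acid, whereas the Kdm4a probes have opposite signs there, -0.56 against 0.71 in shCTR cells.

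Kdm4b acts on the same marks as Kdm4a. Its levels were 1.71, 1.15, 1.67 and 1.68 in shCTR, 1.29, 1.14, 0.97 and 1.25 in sh4, 0.78, 0.72, 0.89 and 1.03 in shCTR 72 RA and 0.98, 0.86 and 1.02 in sh4 72 RA. The shCTR replicate 2 array was low and overlapped with sh4, and both treated groups lay below shCTR. Kdm4b fell with retinoic acid by 0.70 ± 0.12 in shCTR cells (adjusted p = 2.2e-04), to 61.7% of the untreated level, and differed by -0.21 ± 0.13 in sh4 cells (adjusted p = 0.20).

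Untreated Kdm4b was 0.39 ± 0.12 lower in sh4 than in shCTR (adjusted p = 0.031). The within-slide differences were -0.42, -0.01, -0.70 and -0.43 on slides 1 to 4, and a fit blocked on slide gave an adjusted p of 0.012. The call was lost with normexp (-0.35, adjusted p = 0.067), scaling to the array median (-0.43, 0.10) and only the 2 untreated groups in the model (-0.39, 0.099). It was also lost without sh4 replicate 2 (-0.38, adjusted p = 0.064) or 3 (-0.33, 0.090) and without shCTR replicate 1 (-0.34, 0.085), 3 (-0.35, 0.085) or 4 (-0.35, 0.085). After retinoic acid the hairpins differed by 0.09 ± 0.13 (adjusted p = 0.74). The interaction of 0.49 ± 0.18 did not pass (adjusted p = 0.084). A fit blocked on slide gave 0.53 (adjusted p = 0.026), and one without shCTR replicate 2 gave 0.62 (adjusted p = 5.3e-03).

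Kdm4c, the third of these demethylases of trimethylated H3K9 and H3K36, is known as an ES cell factor downstream of Oct4. Its levels were 1.05, 0.87, 0.84 and 0.81 in shCTR and 1.16, 0.92, 0.86 and 0.91 in sh4. After retinoic acid they were -1.14, -1.12, -1.35 and -1.16 in shCTR 72 RA and -1.03, -1.03 and -1.06 in sh4 72 RA. Treated and untreated arrays were far apart, with group SDs of 0.02 to 0.13.

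Kdm4c fell by 2.09 ± 0.08 in shCTR cells (adjusted p = 4.1e-11), to 23.5% of the untreated level with a 95% confidence interval of 20.9% to 26.5%. In sh4 cells it fell by 2.00 ± 0.09 (adjusted p = 1.9e-10), to 24.9% with an interval of 21.9% to 28.4%. Within slides the difference was -2.19 to -1.97 in shCTR cells and -2.19 to -1.93 in sh4 cells, and over the 13 other settings of the analysis it was -2.29 to -1.96 and -2.14 to -1.86, called each time. Among all genes 10.5% had a larger difference in shCTR cells and 9.8% in sh4 cells, in either direction.

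Between hairpins the Kdm4c difference did not pass. After retinoic acid the sh4 arrays lay above the shCTR arrays, with within-slide differences of 0.09 to 0.29. The difference was 0.07 ± 0.08 untreated (adjusted p = 0.64, 95% confidence interval -0.10 to 0.24) and 0.15 ± 0.09 after retinoic acid (adjusted p = 0.27, interval -0.03 to 0.34). The interaction was 0.08 ± 0.12, with an interval of -0.17 to 0.34, which leaves out differences in response beyond that range at this level of confidence. The summed ES cell markers were lower in the treated arrays too, as given above, and their part in the Kdm4c result was not tested. The Kdm4c probe lies at chr4:74051459-74051518 on the forward strand of mm9, at base 3889 of its transcript. The genes closest to Kdm4c by the same measure as for Kdm4a, a comparison chosen after its values were seen, were Prps1, a phosphoribosyl pyrophosphate synthetase, at 0.09 log2, and Pml, the scaffold of nuclear bodies, and Atad3a, a mitochondrial ATPase, both at 0.11, against a root mean square of 1.03 for Kdm4c itself.

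Annotated promoters were read for 4 of the 8 genes from RefSeq on GRCm38.p6, another build than that of the probes, as the 250 bases before each transcript start. Nsd1, Ash1l, Kdm2a and Kdm4b had no entry. Each window was searched on both strands for the GC box GGGCGG, the CCAAT box, the half-site AGGTCA that nuclear receptors, retinoic acid receptors among them, bind in pairs, the TATA box TATAAA and the E-box CACGTG, the last added after the sequences had been seen. Of 32851 such mouse windows 32.7% held GGGCGG, 33.8% CCAAT, 14% AGGTCA, 12.4% TATAAA and 6.02% CACGTG. The windows of Setd2, not called with retinoic acid with the scaling used here, and of Kdm4a and Kdm4c, which fell in shCTR cells, are given. Matches on either strand are in capitals.
Setd2, chr9:110532347-110532596, forward strand: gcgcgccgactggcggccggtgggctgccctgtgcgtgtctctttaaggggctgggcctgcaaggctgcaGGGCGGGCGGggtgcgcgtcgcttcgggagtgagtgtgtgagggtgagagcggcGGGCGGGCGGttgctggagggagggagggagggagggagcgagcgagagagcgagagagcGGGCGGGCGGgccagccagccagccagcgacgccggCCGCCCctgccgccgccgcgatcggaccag
Kdm4a, chr4:118180044-118180293, reverse strand: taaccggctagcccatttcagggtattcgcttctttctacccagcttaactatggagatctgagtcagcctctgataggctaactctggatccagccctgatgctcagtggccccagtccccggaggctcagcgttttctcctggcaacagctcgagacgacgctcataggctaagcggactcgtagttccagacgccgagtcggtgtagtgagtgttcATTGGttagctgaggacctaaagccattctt
Kdm4c, start 1, chr4:74242247-74242496, forward strand: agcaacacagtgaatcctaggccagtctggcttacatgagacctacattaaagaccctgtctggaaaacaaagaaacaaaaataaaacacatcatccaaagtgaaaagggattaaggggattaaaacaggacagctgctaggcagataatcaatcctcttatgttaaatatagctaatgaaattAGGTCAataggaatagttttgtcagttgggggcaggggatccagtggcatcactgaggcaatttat
Kdm4c, start 2, chr4:74251629-74251878, forward strand: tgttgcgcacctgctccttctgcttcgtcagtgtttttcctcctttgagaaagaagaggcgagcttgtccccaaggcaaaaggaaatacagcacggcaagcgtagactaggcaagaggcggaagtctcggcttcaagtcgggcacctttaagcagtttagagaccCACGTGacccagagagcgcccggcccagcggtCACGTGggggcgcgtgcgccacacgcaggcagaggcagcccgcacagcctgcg

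The Setd2 window held 7 GC boxes, some overlapping, and 31 CpG dinucleotides, where 95.4% of all windows held no more. The Kdm4a window held 1 CCAAT, which lies on the strand opposite to the one printed and so reads ATTGG there, and 12 CpG. The 2 starts of Kdm4c were 9382 bases apart: the window of start 1 held 1 AGGTCA and no CpG, and that of start 2 held 2 E-boxes and 19 CpG, where 82.1% of windows held no more. The 4 Kdm2b windows fell into 2 regions 88140 to 88749 bases apart, and all 4 were without AGGTCA and CACGTG. No window of the 4 genes held TATAAA. The array reads the 3′ part of Kdm4c, so it does not tell which start was in use, and a match of letters is no evidence of binding.

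A list of 9 held other enzymes of H3K36 and relatives of such enzymes, and no H3K36 activity is assumed for Kdm4d and Setd3. These 9 went both ways with retinoic acid. In shCTR cells 3 rose and 4 fell, beside 28.9% and 33.5% of all genes. In sh4 cells 4 rose and 4 fell, beside 27.1% and 31.6%. Nsd2, the relative of Nsd1 listed on the array as Whsc1, rose by 2.34 ± 0.07 in shCTR cells (adjusted p = 2.6e-12) and by 1.75 ± 0.07 in sh4 cells (adjusted p = 1.4e-10), opposite to Nsd1. Nsd3, the third of that family, differed by 0.50 in shCTR cells (adjusted p = 0.052) and rose by 0.95 in sh4 cells (adjusted p = 2.5e-03). The largest falls were those of Kdm8 in shCTR cells (-0.64 ± 0.09, adjusted p = 1.7e-05) and Riox1 in sh4 cells (-0.56 ± 0.10, adjusted p = 2.2e-04), both JmjC-domain proteins.

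Untreated, 2 of the 9 were higher in sh4 and 1 lower, led by Nsd2 at 0.62 ± 0.07 (adjusted p = 1.0e-05) and Prdm9, the H3K4 and H3K36 methyltransferase of meiosis, at -0.43 ± 0.10 (adjusted p = 6.1e-03). After retinoic acid 2 were higher, of which Kdm4d had the larger difference at 0.45 ± 0.14 (adjusted p = 0.040). Nsd2 was the one with an interaction, -0.59 ± 0.10 (adjusted p = 8.5e-04). The Nsd2 calls in the retinoic acid comparisons and untreated held in all 28 other settings and left-out arrays, and its interaction in 26 of 27. The Kdm4d difference after retinoic acid was called in 13 of 28.

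Among 14 readers of H3K36 methylation, which include Phf19 itself, 3 rose and 6 fell with retinoic acid in shCTR cells. This stands beside 28.9% and 33.5% of all genes. In sh4 cells 3 readers rose and 6 fell, beside 27.1% and 31.6% of all genes. The largest rises were those of the DNA methyltransferase Dnmt3a in shCTR cells (1.02 ± 0.06, adjusted p = 5.9e-09) and of Zmynd11 in sh4 cells (1.09 ± 0.07, adjusted p = 1.9e-08), a reader of trimethylated H3.3. The largest falls were those of Phf19 in shCTR cells (-2.16 ± 0.09, adjusted p = 6.7e-11) and of the DNA methyltransferase Dnmt3b in sh4 cells (-2.09 ± 0.07, adjusted p = 1.8e-11). Between hairpins untreated Dnmt3b was 1.29 ± 0.06 higher in sh4 (adjusted p = 7.2e-09), and Phf19 was the other reader called. After retinoic acid 2 readers were higher in sh4 and 2 lower, led by Zmynd11 at 0.40 ± 0.07 (adjusted p = 1.4e-03) and Phf19 at -0.88 ± 0.09 (adjusted p = 1.8e-05). The interaction called 3, with Dnmt3b at -1.72 ± 0.10 (adjusted p = 6.0e-08) and Phf19 at 0.85 ± 0.13 (adjusted p = 3.3e-04) at the ends.

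**Figure D4:**
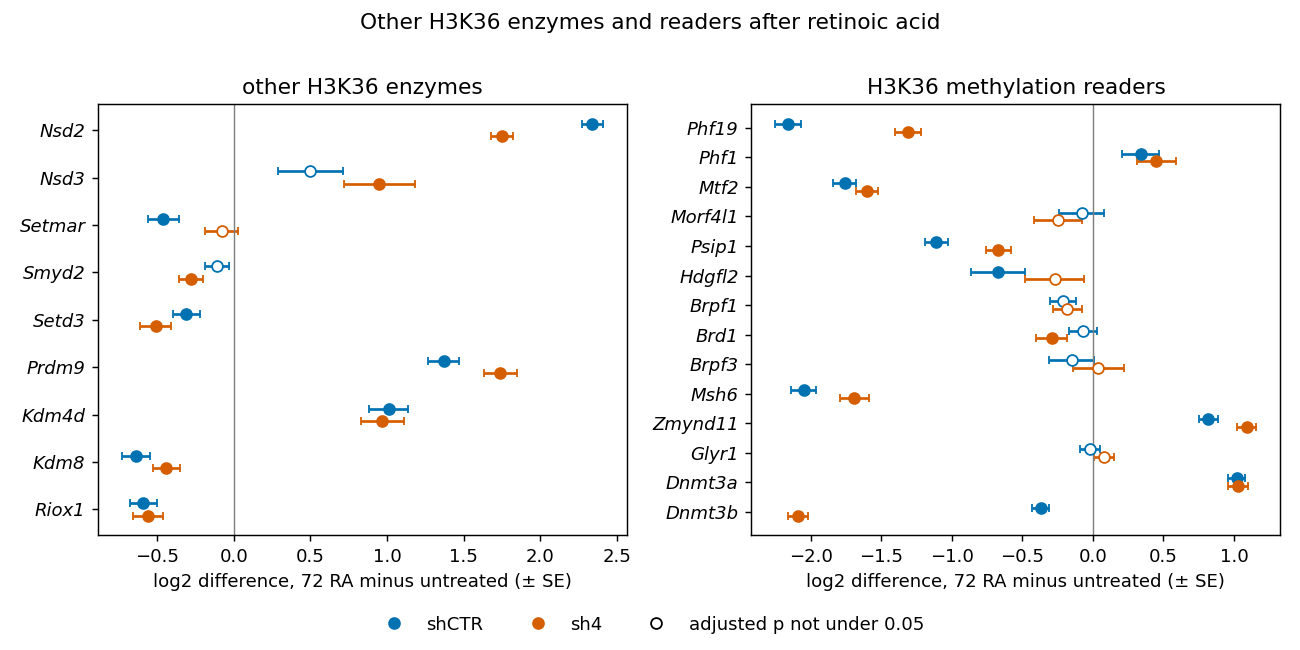
Log2 difference of retinoic acid minus untreated, ± SE, in shCTR and sh4 cells. The left panel has 9 other H3K36 enzymes and relatives of such enzymes, the right 14 readers of H3K36 methylation. Filled points have an adjusted p under 0.05. Nsd2 lies farthest to the right at 2.34 and 1.75, and Dnmt3b differs most between the lines, at -0.37 and -2.09.

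Of 11 genes that work with Setd2 on elongating RNA polymerase II, 2 rose and 7 fell with retinoic acid in shCTR cells. This stands beside 28.9% and 33.5% of all genes. In sh4 cells 2 of the 11 rose and 4 fell, beside 27.1% and 31.6% of all genes. Supt16, a subunit of the FACT histone chaperone, had the largest fall in both (-0.80 ± 0.06, adjusted p = 4.7e-08, and -0.72 ± 0.07, adjusted p = 4.2e-07), and the Paf1 complex subunit Ctr9 the largest rise (0.81 ± 0.15, adjusted p = 4.0e-04, and 0.75 ± 0.17, adjusted p = 1.5e-03). None of the 11 passed between hairpins in untreated cells by limma, where 28.4% of all genes passed. Of the 11, 2 had an unadjusted p under 0.05 there. After retinoic acid 1 of the 11 passed, beside 21.1% of all genes. It was the Paf1 complex subunit Cdc73, at -0.28 ± 0.06 (adjusted p = 3.8e-03). Cdc73 was also the one with an interaction, -0.41 ± 0.08 (adjusted p = 2.7e-03).

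Of 9 partners of Kdm2b in the variant Polycomb complex PRC1.1, 8 were measured, and Skp1a was not found under that name. With retinoic acid in shCTR cells 2 rose and 4 fell, beside 28.9% and 33.5% of all genes. In sh4 cells 3 rose and 4 fell, beside 27.1% and 31.6%. Yaf2 rose by 2.43 ± 0.05 (adjusted p = 1.3e-13) and 1.92 ± 0.05 (adjusted p = 3.4e-12), while the complex's defining subunit Pcgf1 had the largest fall in shCTR cells (-0.99 ± 0.08, adjusted p = 6.2e-08) and the deubiquitinase Usp7 in sh4 cells (-0.92 ± 0.08, adjusted p = 2.0e-07). Untreated, Yaf2 was 0.55 ± 0.05 higher (adjusted p = 1.6e-06) and Pcgf1 0.34 ± 0.08 lower (adjusted p = 4.4e-03) in sh4, and the count was 2 higher and 1 lower. After retinoic acid Rnf2, the ubiquitin ligase, was the 1 partner called, at 0.25 ± 0.07 (adjusted p = 0.014). The interaction called Yaf2, at -0.51 ± 0.07 (adjusted p = 2.3e-04).

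The median differences of these 4 lists with retinoic acid, in the order other enzymes, readers, elongation partners and PRC1.1 partners, were -0.11, -0.18, -0.29 and -0.08 in shCTR cells and -0.08, -0.26, -0.13 and 0.06 in sh4 cells, beside -0.12 over all genes in both lines. Between hairpins 28.4% of all genes passed untreated and 21.1% after retinoic acid, and 20.4% passed in the interaction. The counts of the 4 lists stand beside these shares and are not read as results about the lists.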

How the data were processed

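Total RNA of the 15 samples, 500 ng each, was labelled with Cy3, per the labels' protocols. Each deposited scanner file held spot intensities that Feature Extraction 10.7.3.1 had background-subtracted, per the file headers, with no scaling between arrays, and flags for outlier spots and for spots well above background (0 or 1), likewise deposited. A set of log2 values deposited by the authors had a shared median of 7.49 on all arrays, and its scaling and background treatment are not given in the sources used here. It correlated with the log2 mean signal at 0.995 or more on each array and served as an alternative.

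Flagged spots were left out, spots of a probe averaged, and log2 signals scaled to each array's 75th percentile. Probes well above background on 3 arrays of a group were kept, and the brightest probe stood for its gene. The test was that of limma 3.58.1, two-sided, run under R 4.3.3 with the data.table package (version 1.17.8) over 25139 genes in 5 comparisons. The same fit was also run on simulated arrays, whose noise was independent between arrays and so lacked the shared deviations of a slide. Symbols came from RefSeq (GRCm38.p6) for 26055 of 39429 probes, and probe coordinates are those of the files (mm9). Figures were drawn with matplotlib 3.10.9 under Python 3.11.15. The members, the gene lists and the tests were chosen with earlier results of these data known. All 8 members are named, with every other probe of theirs. From each gene list the largest rise and fall that passed in a comparison are named, with Phf19 as a check and the 3 genes most like a member called in the interaction. Nsd3 is named beside its family, chosen after its values were seen.

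The slide was examined as a batch. Samples of the same slide deviated together from their group means (correlations 0.115 to 0.607 over 21 pairs), those of the same replicate number not always (-0.533 to 0.578). Pairs that shared neither ran from -0.613 to 0.473. The main model had no term for the slide, which is a limit of its p-values. With the slide as a fixed block 9041 genes passed between hairpins untreated, in place of 7149. The number of arrays limits the precision. Alternatives were the background correction, the scaling, the deposited values, the filter, the probe, the slide or replicate number as a block, the groups in the model, limma's trend and robust options and arrays left out.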

Additional observations from a re-analysis of the deposited data

Results flagged for a closer look

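In shCTR replicate 2 the Kdm4b level of 1.15 lay far below the other 3 arrays of its group, which were at 1.67 to 1.71. Its gap to the nearest of them was 0.929 of the group's range, above Dixon's 95% critical value for 4 samples. It was the 1 such value among 36 groups of 4 arrays examined over the 12 probes of the 8 genes, where chance alone gives about 1 in 20. That array is 1 of the 3 that the scanner's quality report asked to evaluate, and its part in the low value was not tested.

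The response to retinoic acid differed between sh4 and shCTR cells, by the interaction term, for Kdm4a on its brighter probe (0.45, adjusted p = 0.029) and for Kdm2b on its second probe (-0.63, adjusted p = 0.010). The Kdm4a interaction on its variant 2 probe was 0.09 (adjusted p = 0.85), and the Kdm2b interaction on its brighter probe was -0.20 (adjusted p = 0.28), so in both genes the result rests on 1 of 2 probes. Among the genes of the 4 related lists the interaction was called for Nsd2 (-0.59), Phf19 (0.85), Psip1 (0.43), Dnmt3b (-1.72), Cdc73 (-0.41) and Yaf2 (-0.51), with adjusted p values of 8.5e-04, 3.3e-04, 0.022, 6.0e-08, 2.7e-03 and 2.3e-04.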

How the results depend on the processing

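Of the 8 genes, 3 passed between hairpins untreated, 3 between hairpins after retinoic acid and 1 in the interaction, and these counts moved with the processing. Untreated, 1 passed with normexp background correction, 1 with only the 2 groups in the model, 1 without the 3 arrays rated for evaluation and 0 with scaling to the array median, where 2 had an unadjusted p under 0.05. Arrays left out in turn gave 1 to 3, the lowest without shCTR replicate 4. After retinoic acid 1 passed with normexp and 0 with array-median scaling, where 3 had an unadjusted p under 0.05, and arrays left out in turn gave 0 to 3, with 0 without sh4 72 RA replicate 4 (4 at an unadjusted p under 0.05) and 1 without shCTR 72 RA replicate 4. In the interaction 0 passed with array-median scaling (2 at an unadjusted p under 0.05) and 2, Kdm4a and Kdm4b, with the slide as a fixed or a random block. Left-out arrays gave 0 to 1 there, with 0 in 7 of 15 fits, in each of which 2 had an unadjusted p under 0.05; without shCTR replicate 2 the 1 gene called was Kdm4b in place of Kdm4a. The counts of 6 and 4 with retinoic acid stayed within 1.5 times under each alternative run, but directions and members moved. In shCTR cells 3 were higher and 4 lower with the deposited values, and 0 higher and 5 lower with normexp. In sh4 cells the mean of a gene's probes gave 2 higher and 3 lower. Kdm4a was among the higher ones, at 0.34 (adjusted p = 7.7e-03).

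Some signs turned. Setd2 with retinoic acid in shCTR cells was called higher with quantile normalisation (0.13, adjusted p = 0.049) and the deposited values (0.12, 0.046). It was called lower there with scaling to the array median (-0.28, 0.022). In sh4 cells Setd2 was 0.09 with quantile normalisation and 0.12 with the deposited values, neither called. Kdm2b in sh4 cells was 0.01 and 0.04 with the same, and in shCTR cells 0.20 with the deposited values. Kdm4a with retinoic acid was 0.08 in shCTR and 0.34 in sh4 cells with the mean of its probes, and 0.71 and 0.80 on its other probe. Nsd1 between hairpins after retinoic acid was 0.25 on its other probe. The cause was not tested. Calls kept by 12 or 13 of 13 settings and all left-out arrays were those with retinoic acid of Kdm4c, Nsd1 and Ash1l in both lines. Those of Kdm4a, Kdm4b and Kdm2a in shCTR cells were kept as well. The settings are not independent of each other. The size of the Ash1l rise was not kept: it was 0.18 and 0.45 with normexp in shCTR and sh4 cells. With the deposited values it was 0.25 and 0.38.

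The replicate number as a block changed 1 call among the 8: Ash1l between hairpins after retinoic acid was 0.42 (adjusted p = 0.060), so 2 passed there in place of 3. The numbers are not shown to pair the samples. Scaling to the array median moved the median of all genes by -0.20 with retinoic acid in shCTR cells and by -0.14 in sh4 cells, and the share of higher calls from 46.3% to 35.4% in shCTR cells; normexp gave 36.5%. Over all genes, 7149 passed between hairpins untreated and 4626 with normexp, 5307 after retinoic acid and 3356 with normexp or 3294 with array-median scaling, and 5122 in the interaction and 3016 or 2978. The signal over background limits the dim probes of Ash1l and of Kdm4a variant 2.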
